A study of Mus musculus with 51 samples.

Results

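Total H3K4me3 was compared between embryos whose mothers had lost Dnmt3a and Dnmt3b in the oocyte (matDKO/CAST) and wild-type B6/CAST embryos, in extra-embryonic ectoderm (ExE) and in epiblast at embryonic day 6.5. The comparison rests on 8 of the 51 libraries of the series, 2 per cross and tissue, and on 45667 autosomal peaks, the union of the H3K4me3 peak lists of the wild-type crosses. Peaks at which the Input (chromatin sequenced without antibody) of the crosses differed 1.5-fold or more were set apart, which took out 2357 peaks (5.16%) in ExE and 922 (2.02%) in epiblast. Among peaks past the threshold those nearest to this limit in epiblast were one near Gm5368, kept with 0.142 RPKM of Input in matDKO/CAST against 0.21 RPKM, and one near Gm45104, set apart with 0.127 RPKM against 0.191 RPKM. Signal is given in RPKM (reads per kilobase, scaled to the reads of the library) from both alleles together, and a change is the difference of log2(RPKM + 0.5), matDKO/CAST minus B6/CAST.

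B6/CAST embryos had a C57BL6/Babr mother and a CAST father, and are wild type. matDKO/CAST embryos came from a mother of mixed B6 and 129 background, homozygous for floxed Dnmt3a and floxed Dnmt3b and carrying Zp3-cre, which is active in growing oocytes, and from a CAST father. They are heterozygous for both deletions, so their own cells keep a paternal copy of each gene. The mothers differ between the crosses in both genotype and strain background, and these cannot be told apart in any difference below. Each library was made from a pool, nominally of 4 epiblasts or 8 ExE, and nothing states how many litters a pool came from, so the p-values measure the spread between these libraries. CAST/B6 embryos, wild type too, come from the reciprocal cross, with a CAST mother and a C57BL6/Babr father. Each of their parental alleles is thus of the other strain than in B6/CAST. The CAST/B6 libraries entered the fit for its estimate of the spread and serve as a second wild-type level.

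H3K4me3 marks the promoters of active and poised genes and is low where the CpG dinucleotides of a promoter are methylated. In the growing oocyte Dnmt3a and Dnmt3b methylate a set of CpG-rich promoters, the maternal germline differentially methylated regions (DMRs), which stay methylated on the maternal allele after fertilisation, while the paternal allele carries H3K4me3. At the Kcnq1 and Igf2r clusters the DMR is the promoter of a long noncoding RNA, Kcnq1ot1 or Airn, which is transcribed from the paternal allele and silences neighbouring protein-coding genes in cis over a wider range in placental lineages than in the embryo.

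The sequences just upstream of the starts on which the results turn are shown to compare their CpG content, since CpG is the dinucleotide that Dnmt3a and Dnmt3b methylate. Each is the 250 bases before the RefSeq start in GRCm38.p6, read 5′ to 3′ on the strand of the gene, with every CG in capitals.
Ascl2, chr7:142969265-142969514, minus strand: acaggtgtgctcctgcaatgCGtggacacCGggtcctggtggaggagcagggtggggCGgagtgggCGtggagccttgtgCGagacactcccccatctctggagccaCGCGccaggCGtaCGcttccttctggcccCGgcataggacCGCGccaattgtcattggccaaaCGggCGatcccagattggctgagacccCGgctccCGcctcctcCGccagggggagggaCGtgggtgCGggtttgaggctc
Phlda2, chr7:143502525-143502774, minus strand: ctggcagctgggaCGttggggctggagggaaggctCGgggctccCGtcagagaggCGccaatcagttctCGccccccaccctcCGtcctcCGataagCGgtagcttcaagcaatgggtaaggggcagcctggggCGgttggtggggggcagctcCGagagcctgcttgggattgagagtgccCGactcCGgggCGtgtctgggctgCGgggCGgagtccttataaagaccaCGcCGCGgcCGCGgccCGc
Kcnq1ot1, chr7:143296548-143296797, minus strand: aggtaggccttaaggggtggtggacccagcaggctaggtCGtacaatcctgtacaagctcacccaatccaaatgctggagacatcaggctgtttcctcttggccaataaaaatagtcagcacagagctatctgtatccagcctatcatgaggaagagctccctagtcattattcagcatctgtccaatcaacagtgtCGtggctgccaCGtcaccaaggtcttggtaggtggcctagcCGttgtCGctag
Igf2r, chr17:12769707-12769956, minus strand: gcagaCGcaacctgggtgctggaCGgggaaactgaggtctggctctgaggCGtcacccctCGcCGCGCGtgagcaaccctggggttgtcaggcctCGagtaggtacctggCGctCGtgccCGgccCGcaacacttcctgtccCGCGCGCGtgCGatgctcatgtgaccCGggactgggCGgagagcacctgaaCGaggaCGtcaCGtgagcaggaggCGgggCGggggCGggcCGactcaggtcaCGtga
Airn, chr17:12741061-12741310, plus strand: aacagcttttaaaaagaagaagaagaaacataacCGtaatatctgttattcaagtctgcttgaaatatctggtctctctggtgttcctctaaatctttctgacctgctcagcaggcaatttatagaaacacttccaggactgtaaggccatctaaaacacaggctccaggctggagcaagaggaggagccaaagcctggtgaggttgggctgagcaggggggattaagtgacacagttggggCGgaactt
Grb10, upstream start, chr11:12037421-12037670, minus strand: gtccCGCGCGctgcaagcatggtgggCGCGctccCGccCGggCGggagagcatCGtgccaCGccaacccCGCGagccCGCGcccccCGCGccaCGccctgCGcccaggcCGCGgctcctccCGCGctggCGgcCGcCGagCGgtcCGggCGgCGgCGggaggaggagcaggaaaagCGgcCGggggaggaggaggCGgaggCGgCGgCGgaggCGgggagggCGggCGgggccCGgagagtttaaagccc
Grb10, downstream start, chr11:12027972-12028221, minus strand: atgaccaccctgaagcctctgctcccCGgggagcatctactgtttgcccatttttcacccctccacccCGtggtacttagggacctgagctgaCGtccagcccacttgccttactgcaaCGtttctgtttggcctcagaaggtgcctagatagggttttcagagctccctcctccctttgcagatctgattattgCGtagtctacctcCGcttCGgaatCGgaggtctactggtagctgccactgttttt
Plagl1, chr10:13090582-13090831, plus strand: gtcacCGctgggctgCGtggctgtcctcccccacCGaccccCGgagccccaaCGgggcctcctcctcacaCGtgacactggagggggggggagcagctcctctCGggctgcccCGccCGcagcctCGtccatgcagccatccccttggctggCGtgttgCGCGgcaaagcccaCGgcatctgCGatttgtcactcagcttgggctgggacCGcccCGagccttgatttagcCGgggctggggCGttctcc
Asz1, chr6:18109062-18109311, minus strand: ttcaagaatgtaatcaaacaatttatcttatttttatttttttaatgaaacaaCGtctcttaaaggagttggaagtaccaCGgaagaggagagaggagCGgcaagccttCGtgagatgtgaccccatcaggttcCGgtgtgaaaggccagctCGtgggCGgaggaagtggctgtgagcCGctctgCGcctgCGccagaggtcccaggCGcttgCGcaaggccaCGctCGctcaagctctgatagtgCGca
The window of Ascl2 holds 19 CG and that of Phlda2 holds 21. Slc22a3, whose window is not shown, has 5, Kcnq1ot1 has 5 and Airn has 2, so upstream of these 3 starts the window is near or below the median of 6 CG over 31396 promoters of the same length. The window of Igf2r holds 27. Both windows of Grb10 differ widely, with 40 CG at the upstream start and 8 at the downstream start. The hexanucleotide TGCCGC, the motif that the imprint-protecting protein Zfp57 recognises when methylated, was searched on both strands and occurs in 8.7% of these promoters. It was found once, on the opposite strand, in the windows of Plagl1 and Asz1 and in none of the other 7 windows shown.

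In ExE, H3K4me3 at the starts of 7 protein-coding genes around Kcnq1ot1 was lower in matDKO/CAST. Ascl2, a transcription factor that trophoblast needs to form the spongiotrophoblast, had 5.38 and 4.01 RPKM in the B6/CAST libraries and 0.949 and 1.23 RPKM in matDKO/CAST. The difference was −1.70 ± 0.22 (SE) on the log2 scale, a 3.26-fold lower value, with an adjusted p of 4.11e-06 (limma, Benjamini-Hochberg over all peaks, two-sided). In epiblast the same peak had 5.75 and 5.32 RPKM against 5.18 and 3.54 RPKM, a change of −0.33 with an adjusted p of 1. In each tissue both matDKO/CAST libraries lay below both B6/CAST libraries at Ascl2.

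Phlda2, which restrains placental growth, had 5.01 and 4.15 RPKM in B6/CAST and 1.00 and 1.28 RPKM in matDKO/CAST (−1.63 ± 0.22, adjusted p 1.87e-05). Kcnq1, which encodes a potassium channel subunit, went from 4.15 and 3.45 RPKM to 0.949 and 1.04 RPKM (−1.52 ± 0.22, adjusted p 3.92e-05). Cdkn1c, an inhibitor of cyclin-dependent kinases, went from 3.64 and 2.60 RPKM to 0.777 and 0.885 RPKM (−1.43 ± 0.23, adjusted p 0.000325). At each of these genes both matDKO/CAST libraries lay below both B6/CAST libraries by a wide gap, and the replicates of a cross lay close together.

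Cd81, Tssc4 and Slc22a18 fell as well, whereas the start-site peaks of Nap1l4 (−0.07 ± 0.23, adjusted p 1) and Tspan32 (−0.86 ± 0.27, adjusted p 0.40) did not pass the test. Cd81, a tetraspanin of the cell surface, had 6.76 and 6.35 RPKM against 2.28 and 1.94 RPKM (−1.44 ± 0.23, adjusted p 0.00029). Tssc4 had the highest level of these genes, with 9.82 and 9.66 RPKM in B6/CAST against 3.67 and 3.54 RPKM in matDKO/CAST (−1.32 ± 0.22, adjusted p 0.000996). Slc22a18, an organic cation transporter, had 1.68 and 1.07 RPKM against 0.255 and 0.237 RPKM (−1.31 ± 0.27, adjusted p 0.0136). Tssc4 thus kept a matDKO/CAST level close to that of Ascl2 or Kcnq1 in B6/CAST, while Slc22a18 was the lowest of the genes named.

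**Figure D1:**
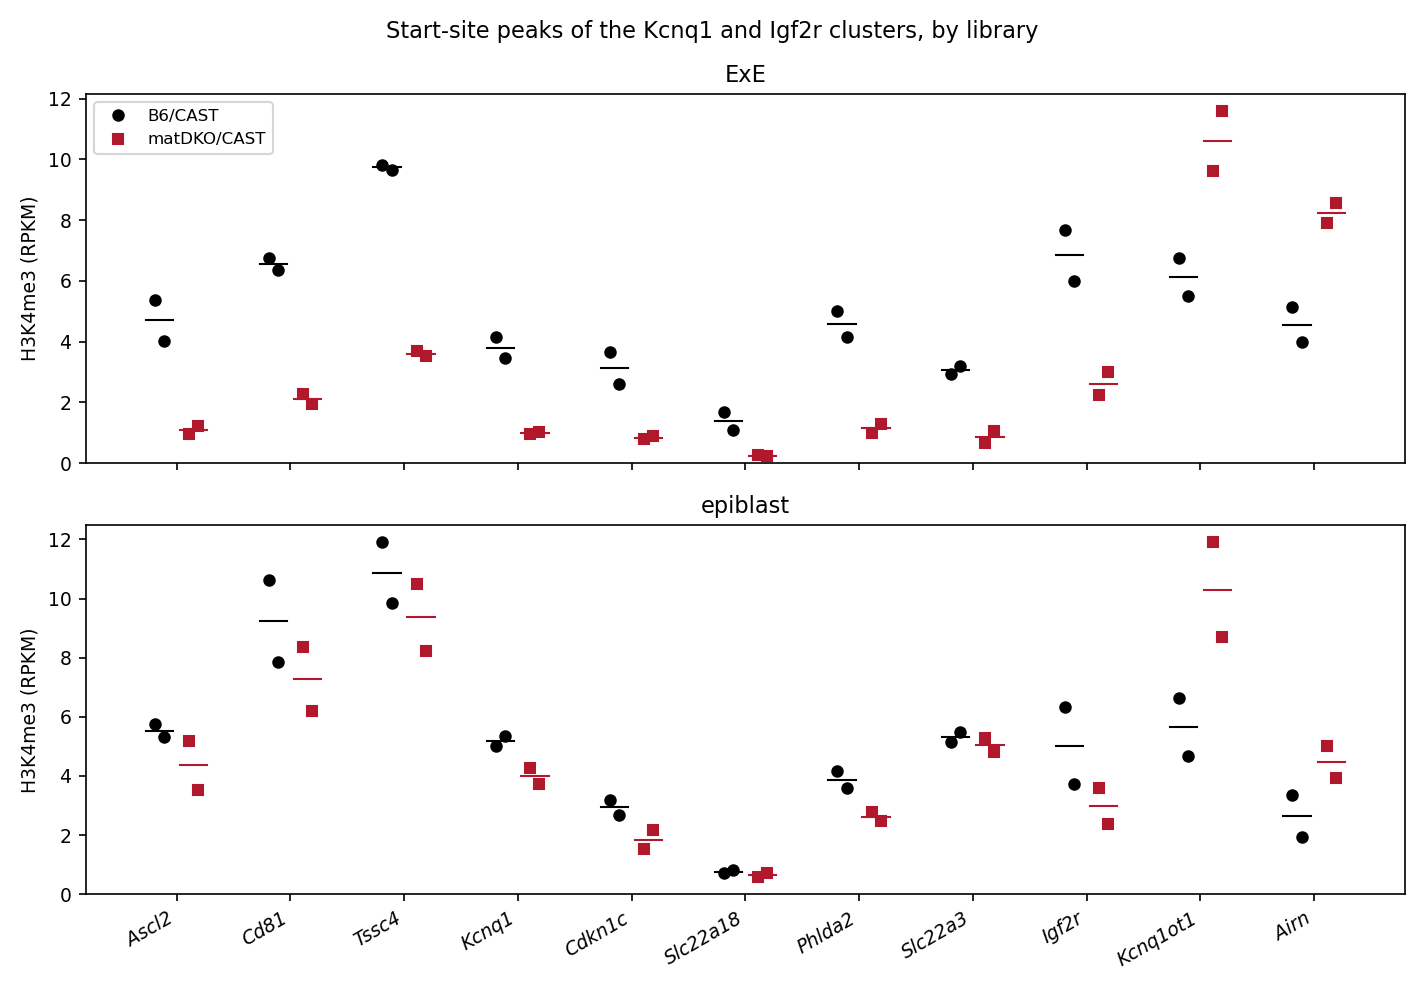
H3K4me3 in RPKM at the start-site peaks of the Kcnq1 and Igf2r clusters and of their noncoding RNAs, ExE above and epiblast below. Each point is 1 library and the line its group mean (n = 2): in ExE the 9 protein-coding genes were lower in both matDKO/CAST libraries (red) than in both B6/CAST libraries (black), while Kcnq1ot1 and Airn were higher in all 4 comparisons of cross and tissue shown, without passing the adjusted threshold.

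At the Igf2r cluster, whose noncoding RNA Airn is also transcribed from the paternal allele, the same direction was seen. Slc22a3, an organic cation transporter, had 2.94 and 3.19 RPKM in B6/CAST ExE and 0.664 and 1.07 RPKM in matDKO/CAST (−1.40 ± 0.22, adjusted p 0.000311). In epiblast Slc22a3 had 5.13 and 5.49 RPKM against 5.28 and 4.80 RPKM, so that the libraries of the crosses overlapped (−0.07, adjusted p 1). Igf2r, the receptor that clears Igf2, went from 7.67 and 6.0 RPKM to 2.24 and 2.99 RPKM in ExE (−1.24 ± 0.25, adjusted p 0.00882). Its change in epiblast, from 6.32 and 3.74 RPKM to 3.59 and 2.37 RPKM, was −0.65 with an adjusted p of 0.459.

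Over the whole autosomal set 37 peaks were lower in ExE of matDKO/CAST and 4 were higher, which is 0.0854% and 0.00924% of the 43310 peaks not set apart. With CAST/B6 as the control the balance turned, to 51 lower, 17 of the 37 among them, and 1543 higher. At start sites 18 were lower (0.107% of 16816). All 37 had matDKO/CAST libraries below both B6/CAST libraries, as did 26.1% of all peaks. Of the 37, 11 lay in 1 run on chromosome 7, from 142830001 to 143507500, among 24 peaks. Of these 11, 7 are the start-site peaks named above, and the others were the start of the noncoding RNA gene Gm6471 (−1.31), a peak near Gm27901 (−1.36), an intergenic peak 16873 bp from Th (−1.23) and a peak in an intron of Kcnq1 (−1.12). No peak of the run was set apart by Input. Within 1 Mb of the Kcnq1ot1 start, 40 of 60 peaks (66.7%) had both matDKO/CAST libraries below both B6/CAST libraries in ExE, and the median change was −0.50 against −0.09 over all peaks. In epiblast 0 of 61 peaks passed the threshold there, 18 (29.5%) had all matDKO/CAST libraries lower, against 8.79% of all peaks, and the median was −0.14 against 0.03. Around Airn 3 of 47 peaks were lower in ExE and 21 (44.7%) had both libraries lower, whereas in epiblast 0 of 48 passed and 6 (12.5%) had both lower.

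**Figure D2:**
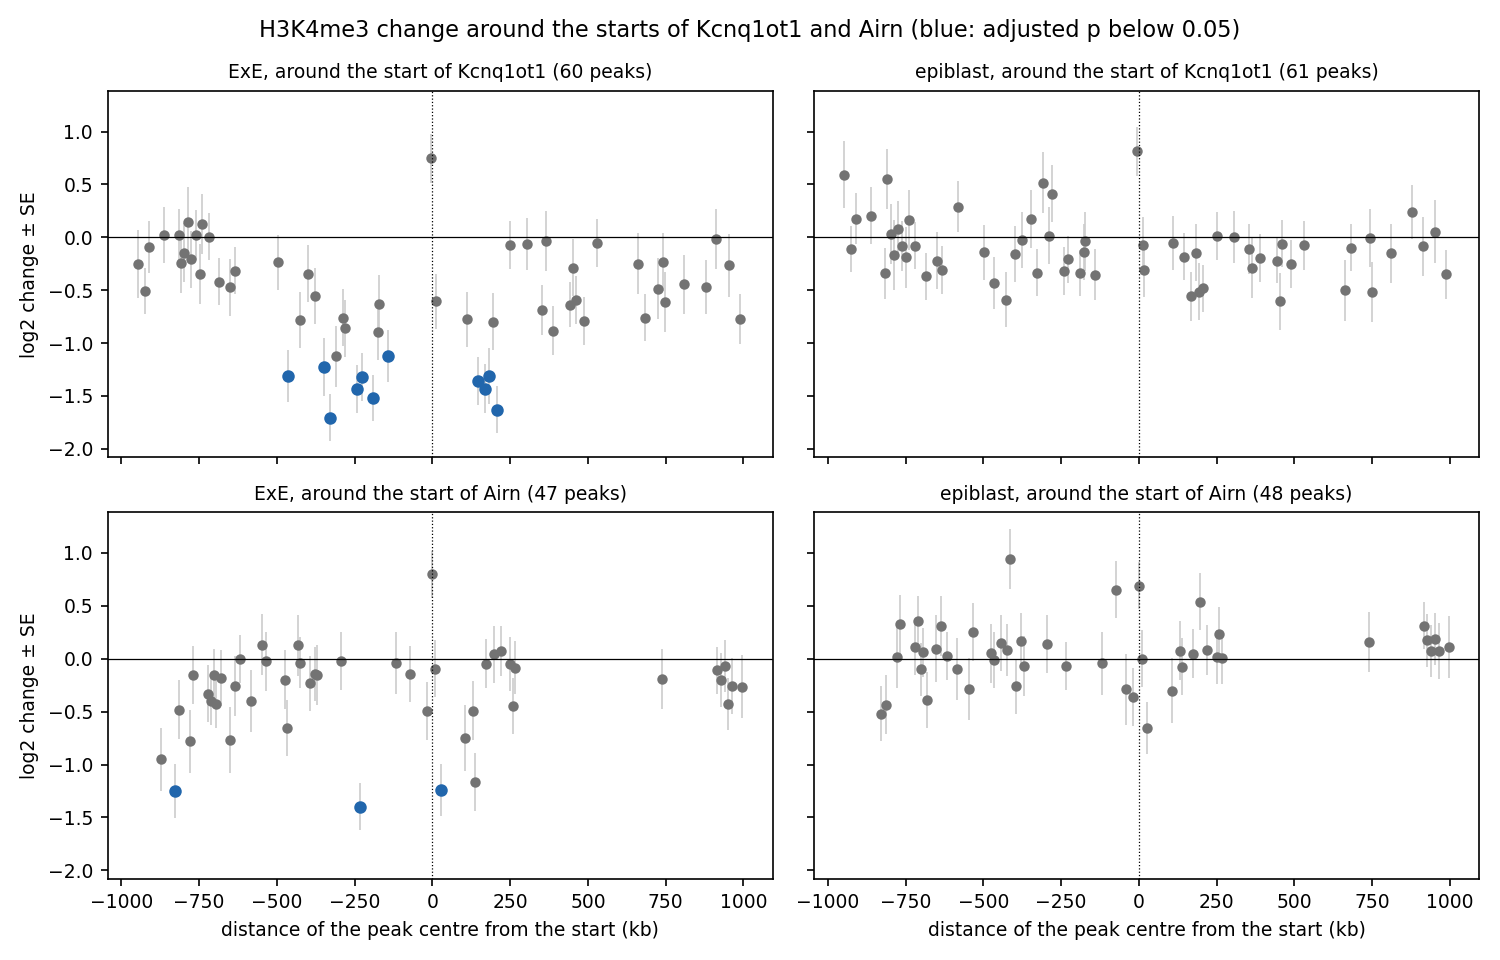
Log2 change with its standard error at each peak not set apart, against the distance in kb of the peak centre from the annotated start of Kcnq1ot1 (above) or Airn (below). In ExE (left) the 11 and 3 peaks past the adjusted threshold (blue) lay on both sides of the start, whose own peak was the highest point, and in epiblast (right) 0 peaks were past it.

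At the starts of the noncoding RNAs the values were higher in matDKO/CAST, without passing the threshold. Kcnq1ot1 had 6.74 and 5.50 RPKM in B6/CAST ExE and 9.61 and 11.6 RPKM in matDKO/CAST (0.75 ± 0.23, adjusted p 0.38). In epiblast it had 6.64 and 4.68 RPKM against 11.9 and 8.70 RPKM (0.81 ± 0.23, adjusted p 0.15). Airn had 5.13 and 3.99 RPKM against 7.91 and 8.57 RPKM in ExE (0.80 ± 0.22, adjusted p 0.24) and 3.34 and 1.94 RPKM against 5.02 and 3.94 RPKM in epiblast (0.69 ± 0.22, adjusted p 0.27). In each tissue both matDKO/CAST libraries were above both B6/CAST libraries at both starts.

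The genes of the list drawn up for both clusters, 16 genes of which 12 have a peak at a start, gave 8 peaks lower in ExE and 0 in epiblast, where 0.0234% of 17101 start-site peaks were lower. The median change over the 12 peaks was −1.36 in ExE and −0.22 in epiblast, beside −0.04 and 0.01 over all start-site peaks. Both matDKO/CAST libraries were lower at 11 peaks in ExE and 5 in epiblast, against 20.1% and 4.94% of start-site peaks. Whether the change itself differed between the tissues was tested peak by peak. For Ascl2 the change in ExE minus that in epiblast was −1.37 ± 0.31 (unadjusted p 7e-05, limma), and for Slc22a3 it was −1.33 ± 0.32 (unadjusted p 0.00014), but adjusted over all peaks these were 0.401 and 0.48. At Igf2r the difference was −0.59 ± 0.35 with an unadjusted p of 0.098. Of the 37 peaks lower in ExE, 0 had an adjusted p below 0.05 for the tissue difference.

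Allelic reads of the same libraries show which parental copy carried the mark. They are counts of reads over strain variants, used here as shares, with exact 95% binomial intervals that cover counting error only. Summed over the 11 peaks of the Kcnq1 run, the maternal share in ExE was 85.9% (84.2 to 87.4) and 77.9% (75.6 to 80.0) in B6/CAST. In matDKO/CAST it was 65.0% (60.0 to 69.8) and 51.9% (45.7 to 58.2), on 383 and 258 reads. In epiblast the shares were 65.3% and 61.8% against 50.2% and 52.4%. Over the 3 called peaks within 1 Mb of the Airn start the ExE share was 84.9% and 80.6% against 49.0% (34.4 to 63.7) and 64.5% (45.4 to 80.8). In epiblast it was 62.7% (56.1 to 68.9) and 56.4% (49.3 to 63.3) against 43.1% (33.7 to 53.0) and 71.4% (51.3 to 86.8), so the matDKO/CAST libraries lay on either side of B6/CAST there. The B6/CAST bias to the mother was smaller in matDKO/CAST at the Kcnq1 run beyond counting error in both tissues, whereas over the 3 peaks around Airn 1 matDKO/CAST interval reached those of B6/CAST in ExE and each overlapped at least 1 of them in epiblast.

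The maternal germline DMR genes themselves had total signal that was mostly above that of B6/CAST, below the threshold, and a large shift between alleles. Of the 28 listed genes 27 have a start-site peak, on 23 peaks, and 0 of these were called higher in either tissue. In ExE 17 of 23 had a change above 0 and 14 had both matDKO/CAST libraries above both B6/CAST libraries, with a median of 0.24 against −0.09 over all peaks. In epiblast 20 of 23 were above 0 and 16 had all libraries higher, with a median of 0.40 against 0.03. Both matDKO/CAST libraries were higher at 5.56% of all peaks in ExE and at 18.7% in epiblast. An unadjusted p below 0.05 was reached by 10 of the 23 peaks in each tissue, against 5.41% of all peaks in ExE and 6.46% in epiblast. The 2 members called lower in ExE were Igf2r and Grb10, and in epiblast Grb10.

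Among them Peg3, a zinc finger gene expressed from the paternal allele, had 12 and 10.3 RPKM in B6/CAST ExE and 17.3 and 18.4 RPKM in matDKO/CAST (0.65 ± 0.26, adjusted p 0.73). Plagl1, a zinc finger regulator of the imprinted gene network, had 4.88 and 4.66 RPKM against 7.84 and 7.86 RPKM (0.66 ± 0.22, adjusted p 0.47). Snrpn, which encodes a spliceosomal protein, went from 8.63 and 8.51 RPKM to 18.4 and 13.0 RPKM in epiblast (0.82 ± 0.23, adjusted p 0.13). Both matDKO/CAST libraries lay above both B6/CAST libraries at each of the 3 genes, by a change below 1 on the log2 scale. The smallest change that passed the threshold at any peak not set apart was −0.94 in ExE, at Gm8239, and 0.98 in epiblast, at Impact. Larger changes missed it too, such as −1.14 at the start of T in ExE (limma adjusted p 0.051). A change that missed the threshold, smaller or larger, is therefore not shown to be absent.

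**Figure D3:**
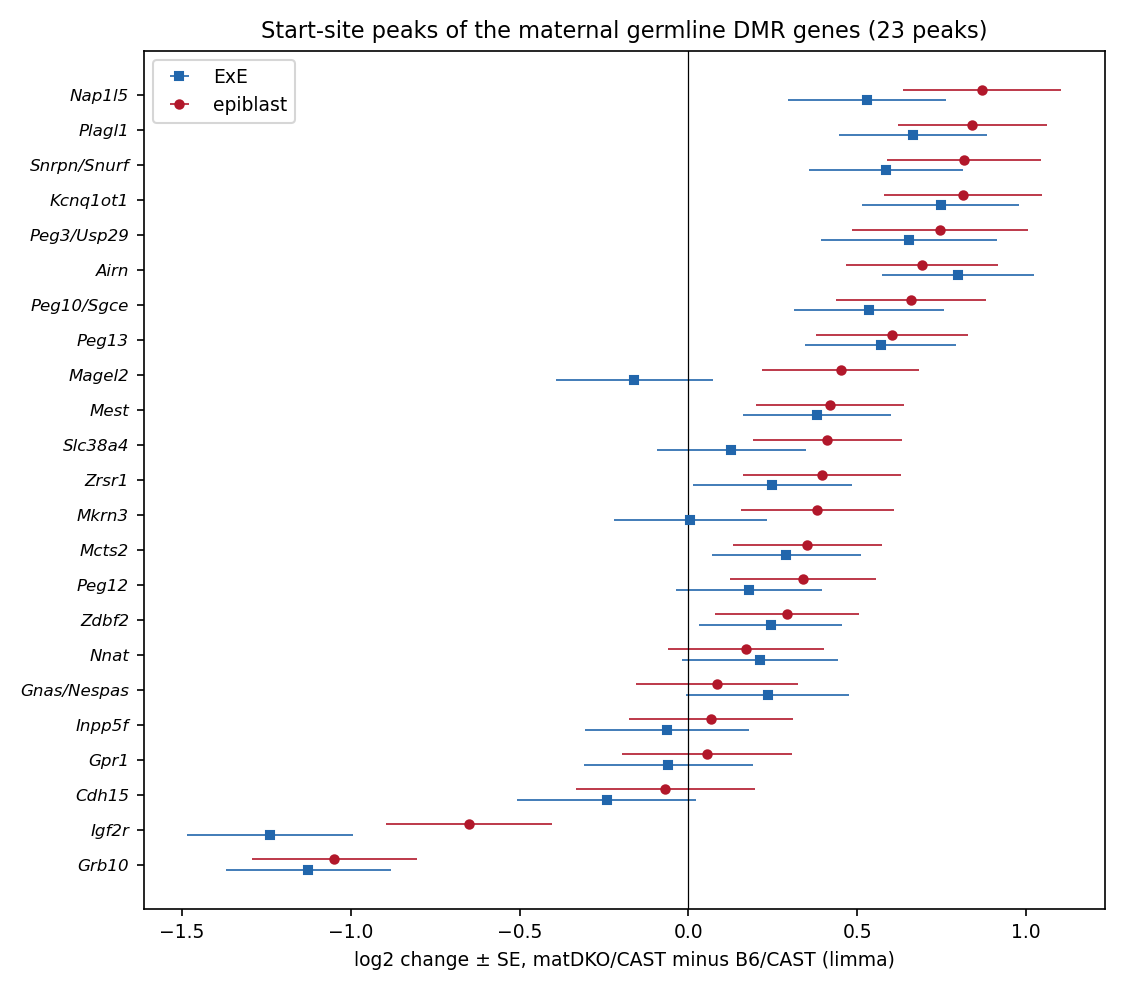
Log2 change with its standard error at the 23 start-site peaks of maternal germline DMR genes, in ExE (blue squares) and epiblast (red circles). Most points lie between 0 and 0.9, and Igf2r and Grb10 lie below −1 in ExE.

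The maternal share of H3K4me3 reads over these 23 peaks was 22.9% and 23.3% in B6/CAST ExE and 47.3% and 47.0% in matDKO/CAST. In epiblast it was 25.1% and 22.7% against 47.6% and 47.1%, and the exact intervals of the crosses did not overlap in either tissue. At Kcnq1ot1 the B6/CAST libraries of ExE had a share of 2.96% and 2.69%, and the matDKO/CAST libraries one of 47.1% and 51.8%. At Snrpn it was 1.37% and 2.48% against 53.4% and 46.0%. At Peg13, a noncoding RNA in an intron of Trappc9, it was 2.06% and 1.87% against 52.3% and 50.5%. Of the peaks with at least 20 allelic reads in each library, 14 of 20 in ExE and 16 of 18 in epiblast had a higher maternal share in both matDKO/CAST libraries, and 4 and 0 a lower one. At Slc38a4, an amino acid transporter, it went from 4.19% and 5.04% to 13.8% and 20.6% in ExE, short of the level near 50% seen at Kcnq1ot1, Snrpn and Peg13.

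**Figure D4:**
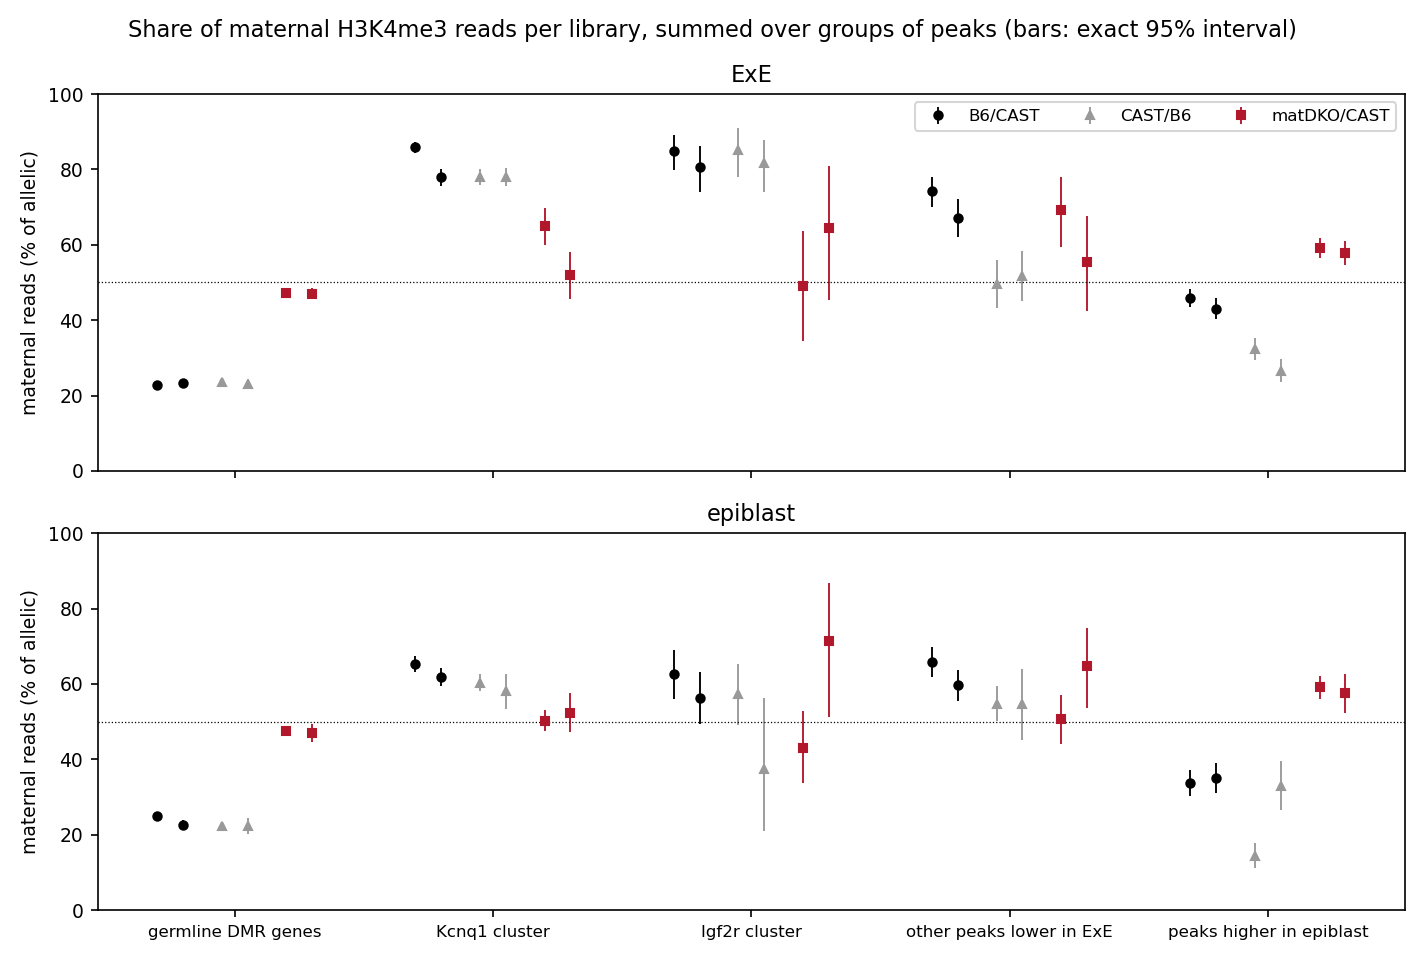
Maternal share of allelic H3K4me3 reads (percent) per library, summed over groups of peaks, with exact 95% intervals, ExE above and epiblast below (the group marked Igf2r cluster holds the 3 called peaks within 1 Mb of Airn). At the germline DMR genes the matDKO/CAST libraries (red) lie near 47%, above the B6/CAST (black) and CAST/B6 (grey) libraries near 23%, and at the Kcnq1 cluster they lie below the wild type in both tissues.

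Impact, which encodes an inhibitor of the kinase Gcn2 and is expressed from the paternal allele, rose in both tissues. It had 4.92 and 3.58 RPKM in B6/CAST ExE and 9.23 and 9.23 RPKM in matDKO/CAST (1.05 ± 0.23, adjusted p 0.0287). In epiblast it had 5.75 and 4.26 RPKM against 11.7 and 8.98 RPKM (0.98 ± 0.23, adjusted p 0.0387). Its maternal share went from 4.62% and 4.73% to 55.1% and 51.4% in ExE and from 1.59% and 3.06% to 54.3% and 46.1% in epiblast. Each call was lost when any 1 of the 4 libraries of its tissue was left out. Impact was not on the list of germline DMR genes and was named by the size of its change.

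Grb10, an adaptor protein that dampens insulin and growth factor signalling, has an upstream promoter used from the maternal allele and a downstream promoter that lies in the germline DMR. At the upstream start ExE had 3.56 and 3.19 RPKM in B6/CAST and 1.26 and 1.29 RPKM in matDKO/CAST (−1.13 ± 0.24, adjusted p 0.0284). Epiblast had 7.89 and 3.77 RPKM against 2.06 and 2.77 RPKM there (−1.05 ± 0.24, adjusted p 0.0385). At the downstream start ExE had 2.56 and 2.58 RPKM against 3.16 and 2.61 RPKM (0.14), and epiblast 1.85 and 2.07 RPKM against 3.44 and 3.83 RPKM (0.75 ± 0.23, adjusted p 0.203). The loss at the upstream start passed the threshold in both tissues and the values at the downstream start did not. The epiblast call was lost without matDKO/CAST epiblast replicate 1, without replicate 2 of that group and without B6/CAST epiblast replicate 1, and the ExE call without any 1 of the 4 ExE libraries. Of the windows shown above, that of the upstream start holds the most CG.

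The other 23 peaks lower in ExE were those outside the run on chromosome 7 and the 3 called within 1 Mb of the Airn start. The largest change of these was at Cdk5rap1, an enzyme that modifies mitochondrial tRNA, with 2.22 and 1.10 RPKM in B6/CAST and 0.019 and 0.0593 RPKM in matDKO/CAST (−1.96 ± 0.28, adjusted p 4.78e-05). In epiblast it had 1.33 and 0.733 RPKM against 0.0416 and 0.125 RPKM (−1.37 ± 0.28, adjusted p 0.0143), a call that was lost without B6/CAST epiblast replicate 1 and without either matDKO/CAST epiblast library. The peak lies within 5 Mb of Dnmt3b, where 2 of 305 peaks were lower in ExE and 2 of 308 in epiblast, beside 0.0854% and 0.0313% of all peaks, and 1 and 2 further called peaks there were set apart by Input. Within 5 Mb of Dnmt3a 0 of 98 and 0 of 101 were lower. Gstm6, a glutathione transferase, fell in both tissues (−1.19 and −1.14), as did a peak near BC147527 (−1.59 and −1.27). Pde10a, a phosphodiesterase, fell in ExE (−1.14), in a run of 3 called losses on chromosome 17, from 7826001 to 9170000. Of that run 1 peak was set apart by Input. Summed over these 23 peaks the maternal share in ExE was 74.2% and 67.2% in B6/CAST, 49.6% and 51.7% in CAST/B6 and 69.2% and 55.4% in matDKO/CAST, so that the wild-type crosses differed in their maternal share over these peaks.

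Leaving out single libraries changed the ExE count widely. It was 9 without B6/CAST ExE replicate 1, 16 without B6/CAST ExE replicate 2, 17 without matDKO/CAST ExE replicate 3 and 108 without matDKO/CAST ExE replicate 2, with 9, 15, 15 and 24 of the 37 among them. Ascl2, Cd81, Kcnq1, Phlda2 and Slc22a3 passed the threshold under each of the 25 alternatives tried, while Grb10 in ExE passed under 18 of 25, Igf2r under 22 of 25 and Slc22a18 under 19 of 24.

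**Figure D5:**
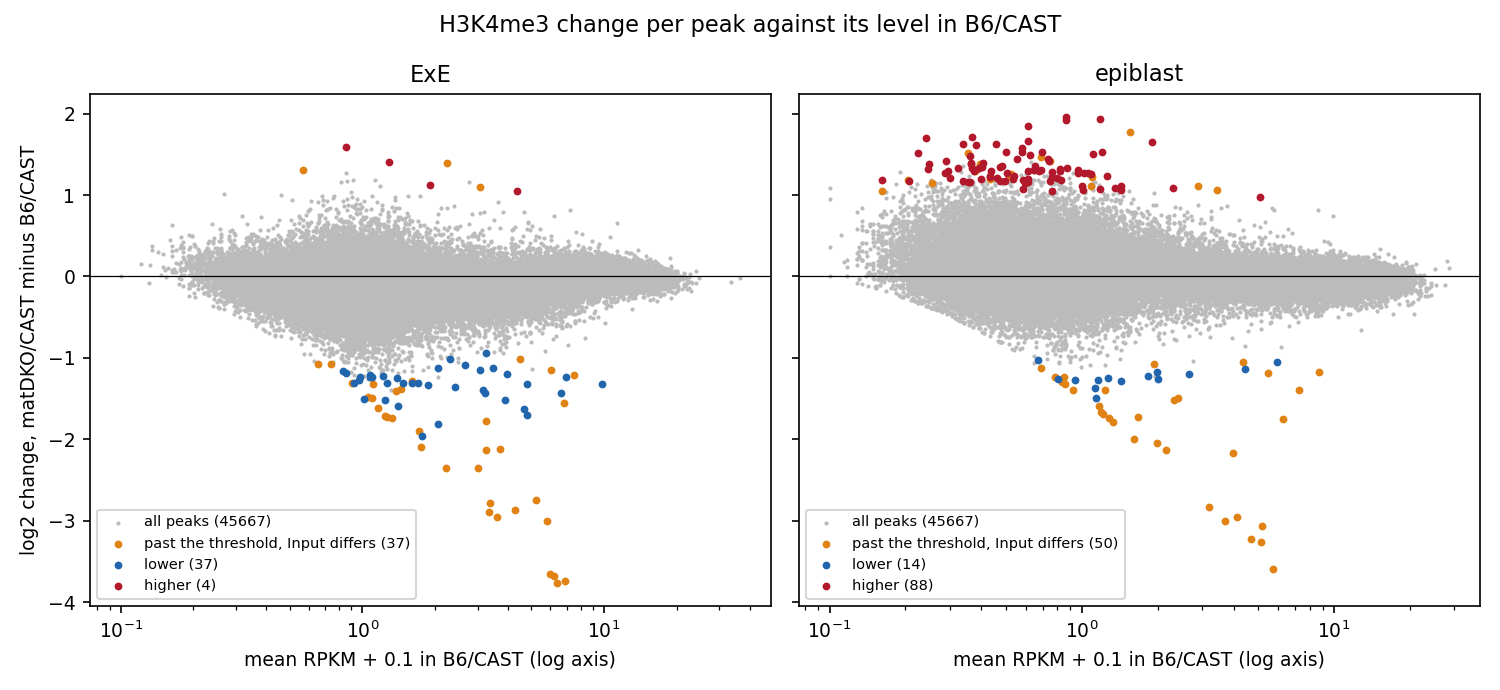
Log2 change of each of the 45667 peaks against its mean RPKM (plus 0.1, log axis) in B6/CAST, for ExE (left) and epiblast (right). Peaks called lower (blue) spread over levels up to about 10 RPKM in ExE, peaks called higher in epiblast (red) lie mostly below 1 RPKM, and called peaks with differing Input (orange) reach the largest losses.

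Besides Impact, 3 peaks were higher in ExE, and with the peaks of differing Input 7 were (0.0153% of all peaks). Hus1b, a paralogue of the checkpoint clamp protein Hus1, had 1.09 and 0.414 RPKM in B6/CAST and 3.42 and 2.85 RPKM in matDKO/CAST (1.59 ± 0.27, adjusted p 0.000996). In epiblast it went from 1.62 and 1.30 RPKM to 6.4 and 5.99 RPKM, but was set apart there because its Input was 1.54 times as high in matDKO/CAST. A peak in an exon of Gfod2, 7698 bp from the start of 4933405L10Rik, had 1.64 and 1.97 RPKM against 4.37 and 4.63 RPKM in ExE (1.12 ± 0.25, adjusted p 0.042). It was called in epiblast as well (1.50). A peak in an intron of Abhd17b had 1.76 and 0.621 RPKM against 3.39 and 4.11 RPKM (1.41 ± 0.30, adjusted p 0.024). Of the 4 peaks higher in ExE, Impact included, 0 were called without B6/CAST ExE replicate 2, 1 without matDKO/CAST ExE replicate 3, and 2 each without B6/CAST ExE replicate 1 and without matDKO/CAST ExE replicate 2.

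In epiblast the balance was the reverse, with 88 peaks higher and 14 lower in matDKO/CAST (0.197% and 0.0313% of 44745 peaks not set apart). With CAST/B6 as the control 4649 were higher, 75 of the 88 among them, and 58 lower. Of the 88, 77 (87.5%) had a B6/CAST mean below 1 RPKM, against 54.3% of all peaks, in the libraries that also made the call, so nothing is read from this share. With only peaks of a mean of at least 1 RPKM fitted, 147 were higher, among them 46 of the 88. Over the 88 peaks the median level was 0.489 RPKM in B6/CAST, 0.365 RPKM in CAST/B6 and 2.02 RPKM in matDKO/CAST. Start sites made up 22 of them (0.129% of start-site peaks), and 37 were intergenic (42.0%, against 29.4% of all peaks).

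Gm9111, a processed pseudogene, had 1.31 and 0.853 RPKM in B6/CAST epiblast and 5.99 and 4.99 RPKM in matDKO/CAST (1.93 ± 0.24, adjusted p 3.82e-06). In ExE the peak had 1.64 and 1.10 RPKM against 1.67 and 1.30 RPKM, and the crosses overlapped in range (0.10). The pseudogene Gm9229 had 0.802 and 0.728 RPKM against 4.24 and 4.58 RPKM (1.96 ± 0.27, adjusted p 2.12e-05). Pseudogenes share sequence with their parent genes, so their reads may be split between copies.

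Asz1, a germ cell gene needed for piRNA formation, was the member of the germline gene list that rose. It had 0.252 and 0.273 RPKM in B6/CAST epiblast and 1.04 and 2.12 RPKM in matDKO/CAST (1.40 ± 0.28, adjusted p 0.0125), and in ExE 1.41 and 0.725 RPKM against 2.09 and 1.72 RPKM (0.65 ± 0.28, adjusted p 0.82). Of the 21 germline genes with a peak, 17 were above 0 in epiblast, against 8849 of 17101 start-site peaks, and 9 had both matDKO/CAST libraries higher, against 12.7% of start-site peaks. In ExE 16 of the 21 were above 0, 6 had both libraries higher and 3 both lower, against 4.58% and 20.1% of start-site peaks. Their median change was 0.31 in epiblast and 0.13 in ExE. Vxn, a regulator of neurogenesis, had 0.168 and 0.546 RPKM against 2.16 and 2.00 RPKM in epiblast (1.62 ± 0.33, adjusted p 0.012). Zfp980, a zinc finger gene, had 0.112 and 0.171 RPKM against 0.956 and 2.50 RPKM (1.71 ± 0.34, adjusted p 0.011). Asz1 passed the threshold under 16 of 23 alternatives, and Vxn and Zfp980 under 16 of 22 each. Each of these calls was lost with median scaling, without matDKO/CAST epiblast replicate 2 and without B6/CAST epiblast replicate 1.

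The other named gains lay in gene bodies or between genes: near Sin3b (1.92), in an intergenic stretch of chromosome 4 whose nearest start is Musk (1.84), near 2700029L08Rik (1.72), in an exon of Tiam1 (1.66), in an intron of Pcdh9 (1.66) and near Gm13315 (1.62). Near Sin3b the libraries had 0.168 and 1.36 RPKM against 3.24 and 4.24 RPKM. The B6/CAST replicates differed by more than the whole lower value there, as they did at the chromosome 4 peak with 0.14 and 0.887 RPKM. Summed over the 88 peaks the maternal share in epiblast was 33.7% and 35.1% in B6/CAST, 14.3% and 32.9% in CAST/B6 and 59.2% (56.1 to 62.2) and 57.5% (52.3 to 62.6) in matDKO/CAST. These sums rest on few peaks, since 3 of the 88 had at least 20 allelic reads in each B6/CAST and matDKO/CAST library, and the imprinted gene Impact gave 4 maternal and 248 paternal of the 704 reads of B6/CAST replicate 1. In ExE the sums were 45.9% and 43.0% in B6/CAST, 32.2% and 26.6% in CAST/B6 and 59.2% and 57.8% in matDKO/CAST. The median change of the 88 in ExE was 0.18 with 66 above 0, beside −0.09 and 13750 of 43310 over all peaks.

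The count of 88 depended on single libraries. It was 9 without matDKO/CAST epiblast replicate 2, which has 4.01 M reads, 11 without B6/CAST epiblast replicate 1 and 30 without B6/CAST epiblast replicate 2, with 8, 8 and 22 of the 88 among them, and DESeq2 on recovered reads called 7 higher and 7 lower.

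Among the 14 peaks lower in epiblast, Cdk5rap1, Grb10, Gstm6 and the peak near BC147527 were lower in ExE too, which is 28.6% of the epiblast list and 10.8% of the ExE list. The largest loss was in an intron of Nell1, with 0.783 and 1.30 RPKM in B6/CAST and 0.0831 and 0 RPKM in matDKO/CAST (−1.49 ± 0.33, adjusted p 0.024). An intergenic peak of chromosome 3 whose nearest start is Bche had 1.59 and 1.06 RPKM against 0.125 and 0.374 RPKM (−1.29), and a peak in an intron of Gab2 had 0.746 and 0.932 RPKM against 0.0277 and 0.0832 RPKM (−1.27). A peak near Slpi (−1.22), one near Mrto4-ps2 (−1.26), one near Gm5368 (−1.26), an intergenic peak of chromosome 7 whose nearest start is Gm23040 (adjusted p 0.019) and the start of 9030624G23Rik (−1.20) made up the rest of the named losses. All 14 had a change below 0 in ExE, with a median of −1.12, beside 29560 of 43310 and −0.09 over all peaks. Single libraries carried these calls: 0 of the 14 were called without B6/CAST epiblast replicate 1, 3 without matDKO/CAST epiblast replicate 2, and 6 each without B6/CAST epiblast replicate 2 and without matDKO/CAST epiblast replicate 1.

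When the change in ExE was compared with that in epiblast over all peaks, 1 peak passed the adjusted threshold, 0.00234% of 42668, and 1836 of all peaks (4.02%) had an unadjusted p below 0.05. It is an intergenic peak at chr13:82335001-82337000, 42643 bp from Gm4936. It had 1.41 and 0.966 RPKM in B6/CAST ExE and 0.38 and 0.237 RPKM in matDKO/CAST, and 0.14 and 0.409 RPKM against 1.2 and 1.50 RPKM in epiblast. The change in ExE was −1.05 ± 0.29 (adjusted p 0.205) and that in epiblast 1.29 ± 0.29 (adjusted p 0.0276), and the difference was −2.35 ± 0.41 (adjusted p 0.042). The call of a difference was lost with median scaling, edgeR, DESeq2, a pseudocount of 0.1 and overlap weighting. It was also lost on leaving out any of the 4 B6/CAST libraries, matDKO/CAST epiblast replicate 2 or matDKO/CAST ExE replicate 3.

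Many losses past the threshold sat where Input differed. In ExE 34 of 71 were set apart, against 5.16% of all peaks, 32 of them with lower Input in matDKO/CAST, and in epiblast 32 of 46 (against 2.02%), 31 of them with lower Input. All 20 called losses in a stretch of chromosome 12, from 17872001 to 23636000, were set apart in ExE, and 18 of 20 in a stretch ending at 24098500 in epiblast. Over the 34 ExE peaks the median Input was 0.0226 RPKM in matDKO/CAST, 0.158 RPKM in B6/CAST and 0.12 RPKM in CAST/B6. Their H3K27me3 was lower too, with both matDKO/CAST libraries below both B6/CAST libraries at 67.6% of the 34 peaks against 10.7% of all peaks. Less H3K4me3 and less of the sequence in the chromatin cannot be told apart at these peaks.

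H3K27me3, the mark of Polycomb repression, was read at the same peaks from libraries of the same crosses and tissues. In ExE it was called higher at 0 and lower at 0 of 43310 peaks. At Cdkn1c it was 3.29 and 2.80 RPKM in B6/CAST and 6.04 and 4.39 RPKM in matDKO/CAST (0.68 ± 0.21), at Tssc4 1.75 and 1.28 RPKM against 3.42 and 2.31 RPKM (0.73 ± 0.22), and at Phlda2 2.80 and 2.10 RPKM against 4.47 and 3.28 RPKM (0.57 ± 0.22). Both matDKO/CAST libraries were above both B6/CAST libraries at these 3 genes, at Cd81 and at Slc22a18, and at 31 of 60 peaks within 1 Mb of Kcnq1ot1, against 22.4% of all peaks in ExE. At the other starts around Kcnq1ot1 whose H3K4me3 was called lower, the H3K27me3 change was 0.10 at Ascl2, 0.13 at Kcnq1 and 0.33 at Gm6471. Around Airn it was 0.21 at Slc22a3 and 0.00 at Igf2r, and at the upstream start of Grb10 it was 0.34. In epiblast, where 0 peaks within 1 Mb of Kcnq1ot1 were called for H3K4me3, H3K27me3 had all matDKO/CAST libraries higher at 23 of 61 of them, against 16.65% of all peaks, and its change at Tssc4 was 0.59 ± 0.22. Over all peaks in epiblast 1 was higher (0.00223%) and 3 lower (0.0067%), among them Zdbf2, a paternally expressed gene, where H3K27me3 went from 4.10 and 4.69 RPKM to 0.624 and 0.599 RPKM (−2.14 ± 0.20) while H3K4me3 had a change of 0.29. With libraries scaled to equal medians 302 peaks were higher and 99 lower in epiblast. H3K36me3 was called at 0 peaks in either tissue.

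Because peaks were called in the wild-type crosses only, 1 kb windows outside every peak with a mean of at least 1 RPKM over the libraries were read as well, 200 in all. The mean took in all 12 libraries, so windows low in B6/CAST passed only through the other libraries and had to be higher in them, and the counts are given as a description. Of the windows not set apart 10 of 184 (5.43%) were higher in ExE, 15 of 195 (7.69%) in epiblast, 8 of them in both, and 0 were lower in either tissue. An unadjusted p below 0.05 was reached by 18 and 37 of the 200 windows. The largest difference lay at the start of the noncoding RNA gene Gm35082, chr7:100675001-100676000, which had 0.172 and 0.069 RPKM in B6/CAST ExE and 9.87 and 10.7 RPKM in matDKO/CAST (4.12 ± 0.40). In epiblast it had 0.224 and 0.136 RPKM against 5.82 and 4.24 RPKM (3.01 ± 0.40). A window 16750 bp from Gm8990 on chromosome 13 had 0.112 and 0.0682 RPKM against 4.32 and 4.74 RPKM in epiblast (3.09 ± 0.30), and was set apart by Input in ExE. Windows in Habp4 (2.71 in ExE and 1.65 in epiblast), near Gm5586 (2.31 and 2.60) and at the start of the pseudogene Gm10059 (2.21 and 1.23) were higher in both tissues. At Gm35082, Gm5586 and Gm10059 the B6/CAST libraries of both tissues had at most 0.402 RPKM.

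Promoter H3K4me3 in a heterozygote does not measure the deletion, and no change was called at the starts of the deleted genes. Of the start-site peaks of Dnmt3a, the CpG-rich one had 8.22 and 8.26 RPKM in B6/CAST ExE and 8.98 and 11.0 RPKM in matDKO/CAST (0.25 ± 0.23, adjusted p 1). Dnmt3b had 6.84 and 6.07 RPKM against 5.09 and 6.51 RPKM (−0.15, adjusted p 1). No listed gene of the DNA methylation machinery was called in either tissue, of 15 with a peak.

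Fixed markers of cell types were read in each library, and 0 were called between matDKO/CAST and B6/CAST in either tissue. Summed over the 5 ExE markers Cdx2, Eomes, Elf5, Esrrb and Tfap2c, ExE libraries had 32.0 to 38.3 RPKM in B6/CAST and 25.9 to 32.6 RPKM in matDKO/CAST. Epiblast libraries had 28.5 to 32.6 RPKM and 24.4 to 31.5 RPKM over the same markers. These ranges overlap those of ExE, so this sum does not separate the tissues. The 5 epiblast markers summed to 18.1 to 20.5 RPKM against 11.4 to 18.2 RPKM in ExE and to 51.7 to 52.5 RPKM against 41.6 to 57.1 RPKM in epiblast, and the 3 mesoderm markers to 13.3 to 15.1 RPKM against 9.0 to 11.7 RPKM in ExE. T, the primitive streak gene brachyury, had 4.89 and 4.99 RPKM against 1.45 and 2.64 RPKM in ExE (−1.14, adjusted p 0.051). In ExE 19 of 19 epiblast and pluripotency genes and 15 of 15 primitive streak genes had a change below 0, with medians of −0.22 and −0.28 against −0.04 over start-site peaks, of which 10538 of 16816 were below 0. Both libraries were lower at 9 and 8 of these genes, against 20.1% of start-site peaks. ExE and trophoblast stem cell genes were below 0 at 14 of 18 (median −0.18), decidua and blood genes at 5 of 6 (−0.21) and housekeeping genes at 11 of 12 (−0.07). The primitive streak genes were below 0 at 15 of 15 in epiblast too, with a median of −0.25 against 0.01 over start-site peaks. Both libraries were lower at 3 of them there, against 4.94% of start-site peaks. Epiblast and pluripotency genes were below 0 at 11 of 19 in epiblast (median −0.04). The part of these shifts in the losses was not tested. In such pools fewer cells of a type and less signal per cell cannot be told apart. Other lists, paternal germline DMR genes, visceral endoderm, decidua and blood, antiviral and housekeeping genes, gave 0 calls in either tissue. Trophoblast differentiation genes gave 1 of 6 with a peak, Ascl2, lower in ExE, beside 0.107% of start-site peaks. Of the 10 genes with non-canonical imprints named by the study, which were chosen on these samples, 1 was lower in ExE, Cd81, beside that same share. Counting every peak in or within 10000 bp of these genes, 3 of 39 were lower in ExE, beside 0.0854% of all peaks, among them the start of Pde10a given above, which is not the highest peak at a start of that gene, and 0 of 40 in epiblast.

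The 8 libraries held 4.01 to 17.9 M aligned reads, recovered from the table because its low values are whole multiples of 1 read, worth 0.0559 to 0.25 RPKM. The share of reads in peaks was 74.2% ± 5.88 (SD, n = 2) in matDKO/CAST ExE and 77.0% ± 8.97 in B6/CAST, and 79.8% ± 11.4 against 79.8% ± 10.9 in epiblast, with an exact permutation p of 0.667 and 1 (two-sided), in a design of 2 libraries a side that cannot reach 0.05. As a yardstick, CAST/B6 against the same B6/CAST libraries gave 11 peaks higher (0.0264%) and 2204 lower (5.3%) in ExE, and 1 higher (0.00229%) and 84 lower (0.192%) in epiblast. Scaling the libraries to equal medians turned these counts into 2326 higher and 1847 lower in ExE and 2211 higher and 1651 lower in epiblast.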

How the data were processed

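H3K4me3, H3K27me3 and H3K36me3 ChIP and Input libraries were made by ultra-low-input native ChIP from E6.5 pools. Per the submitters' processing notes the authors trimmed reads (Trim Galore 0.4.4), aligned them with Bowtie2 2.3.2 to GRCm38 and deposited RPKM in consecutive 1 kb autosomal windows. They deposited allelic counts over peaks, made with reads split by B6, 129 and CAST variants, and peak lists from a hidden Markov model, whose score is 0 in every row (other values, deposited by the authors, not used).

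RPKM was averaged over the windows overlapping each of 45667 merged peaks, and log2(RPKM + 0.5) was fitted with limma 3.58.1 (R 4.3.3; a mean for each of 6 groups, 12 libraries, trended prior, 6 residual and 35.06 prior degrees of freedom). Benjamini-Hochberg adjustment ran over all peaks, threshold 0.05, two-sided. Peaks with an Input ratio of 1.5 or more were set apart after the fit. The low RPKM values of every library were whole multiples of 1 read (100% within 0.01), and edgeR 4.0.16 and DESeq2 1.42.0 were run on these reads as alternatives. Allelic shares used the deposited counts, with exact intervals from scipy 1.17.1 in Python 3.11.15. The fit was tested on simulated data with known changes. Depth was 4.01 to 17.9 M reads per library. Peaks were annotated with GENCODE starts of the GRCm38 reference, within 10000 bp of a start. Named were the 10 largest called increases and decreases per tissue with libraries not overlapping, called list members, all germline DMR genes and the 5 largest windows outside peaks. The members and the gene lists were chosen with earlier results of these data known. No p adjusted over a list, set test or overlap between comparisons sharing libraries was used. The values of 1 called peak are not reported here.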

Additional observations from a re-analysis of the deposited data

Results flagged for a closer look

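The intergenic peak on chromosome 13, 42643 bp from Gm4936, was the 1 result that differed between the tissues under the same contrast. Its change in ExE minus its change in epiblast was −2.35 on the log2 scale (SE 0.41, limma adjusted p 0.042). The call was lost with median scaling, edgeR, DESeq2, a pseudocount of 0.1 and overlap weighting, and on leaving out any B6/CAST library, matDKO/CAST epiblast replicate 2 or matDKO/CAST ExE replicate 3. Both matDKO/CAST libraries lay below both B6/CAST libraries in ExE and above both in epiblast. The peak has 0.13 RPKM of Input in matDKO/CAST and 0.161 RPKM in B6/CAST in ExE, and levels under 2 RPKM in all 8 libraries. Groups of 2 libraries are too small for a test of single outlying libraries.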

How the results depend on the processing

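Start-site peaks of Ascl2, Cd81, Kcnq1, Phlda2 and Slc22a3, passed the threshold in ExE in each of 25 alternatives, as did Gm9111 and Gm9229 in epiblast. Of the alternative values of named peaks called in ExE 503 kept their direction and side of the threshold and 64 lost significance, and 501 and 125 did so in epiblast. Slc22a3 in epiblast changed from −0.07 to 0.78 with CAST/B6 as the control (adjusted p 0.0193). The cause was not tested for any change below.

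The 4 peaks higher in ExE became 1 (pseudocount 0.1), 9 (pseudocount 1), 9 (mean of at least 1 RPKM), 19 (median scaling), 12 (edgeR), 7 (DESeq2), 16 (4 libraries alone), 17 (6 libraries of the tissue), 1543 (CAST/B6 as control), 7 (Input differences kept) and 1 (adjusted p below 0.01). The 37 lower became 108 (median scaling, 21 shared), 59 (edgeR, 28 shared), 88 (4 libraries), 145 (6 libraries), 71 (Input kept) and 20 (below 0.01). The 88 higher in epiblast became 20 (pseudocount 0.1), 147 (mean of at least 1 RPKM), 41 (median scaling), 23 (edgeR), 7 (DESeq2), 174 (4 libraries), 4649 (CAST/B6) and 18 (below 0.01). The 14 lower became 8 (mean of at least 1 RPKM), 6 (median scaling), 7 (DESeq2), 25 (4 libraries), 58 (CAST/B6), 46 (Input kept) and 3 (below 0.01). The 1 tissue difference became 0 (pseudocount 0.1, DESeq2, overlap weighting and below 0.01), 3 (pseudocount 1, the named peak among them), and 4 (mean of at least 1 RPKM), 5 (median scaling) and 2 (edgeR), none of which was the named peak.

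Leaving out each library in turn gave 0 to 10 peaks higher and 9 to 108 lower in ExE, 9 to 218 higher and 3 to 29 lower in epiblast, and 0 to 8 peaks with a lower change in ExE than in epiblast (0 with a higher one in every case). Windows outside peaks numbered 7 to 11 in ExE and 8 to 21 in epiblast. With 1 library left in a group, that library was assumed to vary like the others.

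The labels tie the replicate numbers to no shared litter or day, and deviations of same-numbered libraries correlated with r from −0.21 to 0.287 (0.179 for B6/CAST and matDKO/CAST epiblast, −0.14 for the 1 number these share in ExE), so the numbers were not taken as pairs. With a replicate block 268 peaks were higher and 26 lower in epiblast, 33 differed between tissues, and the wild-type comparison gave 3363 lower in ExE.

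Windows higher in ExE (10) became 6 (pseudocount 0.1), 1 (mean of at least 2 RPKM) and 6 (below 0.01), and in epiblast (15) 9 (pseudocount 0.1), 9 (median scaling) and 1 (mean of at least 2 RPKM). H3K27me3 with median scaling gave 22 higher and 1 lower in ExE and 302 higher and 99 lower in epiblast, with a pseudocount of 0.1 it gave 1 lower in ExE and 0 higher in epiblast, and H3K36me3 gave 1 lower in epiblast with median scaling. CAST/B6 against B6/CAST gave 2 higher and 1385 lower (ExE) and 316 lower (epiblast) with a pseudocount of 0.1, and 2326 higher (ExE), 2211 higher and 1651 lower (epiblast) with median scaling. The lowest depth, 4.01 M reads in matDKO/CAST epiblast replicate 2, makes 1 read worth 0.25 RPKM and limits the low peaks most.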
